A study of Penicillium oxalicum with 6 samples.

Results

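A set of 7 runs of consecutively numbered genes of the filamentous fungus Penicillium oxalicum, 37 genes out of 9727, are described here one by one. Each run held 5 or 6 genes. They were chosen from the strain comparison itself: every member had passed the threshold (limma, Benjamini-Hochberg adjusted p under 0.05) and was at least 2-fold lower in the mutant ΔPOX01387 than in its parent Δku70, with no break in the ID numbers. The falls are therefore a description of the chosen genes and carry no test. The same definition also returned 1 longer stretch, of 16 genes, which is not described.

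The mutant ΔPOX01387 (delta POX01387) lacked POX01387 and was made from the parental strain Δku70 (delta ku70). The parent lacks ku70, a subunit of the complex that rejoins broken DNA ends, so both strains lack that function and a strain with intact ku70 was not measured. Spores of both strains first grew at 28 °C for 24 h in minimal medium with 1.0% glucose, and about 1.0 g of mycelium then spent 24 h in 100 mL of the same medium with 2% Avicel, a microcrystalline cellulose, as carbon source. Each strain was represented by 3 libraries, and the labels do not say whether these came from separate cultures or how many transformants stood behind the mutant.

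In filamentous fungi, genes that serve 1 pathway, such as the synthesis of a secondary metabolite or the uptake and use of a nutrient, often lie next to each other on a chromosome and are switched on and off together. Such a cluster can hold enzymes, transporters and a transcription factor of its own, and can answer to regulators encoded elsewhere in the genome. On cellulose these fungi express genes for secreted cellulases and for sugar uptake. No product is given here for any of the 37 IDs, and the ID numbers serve only as an order; whether consecutive numbers are neighbours on a chromosome was not tested.

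Values are FPKM, fragment numbers scaled for transcript length and for the mapped fragments of the library, so levels of different genes are compared per length. Depth in reads is unknown. The summed FPKM was between 1021694.6 and 1048959.1 in the ΔPOX01387 libraries and between 1002899.2 and 1019320.2 in the Δku70 libraries. Spearman correlations across tested genes were 0.982 to 0.992 within ΔPOX01387 and 0.968 to 0.986 within Δku70, against 0.909 to 0.946 between strains; genes are not independent replicates. POX01387 itself was at 0.02, 0 and 0 FPKM in ΔPOX01387 and at 9.4, 6.89 and 6.14 FPKM in Δku70, as the labels have it. The libraries are of whole mycelium, in which fewer cells of a type and less RNA per cell cannot be told apart.

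All 37 members passed the filter on low values, which asked for 1 FPKM or more on average across libraries, and 4 of them had a ΔPOX01387 mean under 1 FPKM, so they passed through the parental level. By the rule all 37 were called lower. Over all 8925 tested genes, 32.6% were called lower and 6.80% were called and at least 2-fold lower. The 3 ΔPOX01387 libraries lay below the 3 Δku70 libraries for 37 of 37 members, against 40.0% of all tested genes. The contrast that chose the members is the one behind these counts, so nothing is read from them.

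The members' mean levels had a median of 10.7 FPKM in ΔPOX01387 and 40.6 FPKM in Δku70, against medians of 29.6 FPKM in ΔPOX01387 and 33.2 FPKM in Δku70 for all tested genes. In Δku70 they spanned 3.11 FPKM for POX09720 to 6874 FPKM for POX09358. There 3 members were under 10 FPKM, 22 lay between 10 and 100 FPKM and 12 were at 100 FPKM or more, 3 of these at 1000 FPKM or more. Log2 fold changes, given throughout as ΔPOX01387 minus Δku70 on the log2(FPKM + 1) scale, ranged from -5.71 for POX07622 to -1.00 for POX01598, with a median of -1.75, against -0.15 for all tested genes. Of the members, 14 were at least 5-fold lower and 6 at least 10-fold lower on that scale. Over all tested genes, 0.964% were called and at least 5-fold lower, and 0.347% were called and at least 10-fold lower. Across the 37 members the Spearman correlation of the Δku70 mean with the log2 fold change was -0.035, a description over genes that share the same 6 libraries and were chosen by their falls. The 3 members under 10 FPKM in Δku70, POX03928, POX09716 and POX09720, had log2 fold changes of -1.26, -1.71 and -1.05.

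**Figure D1:**
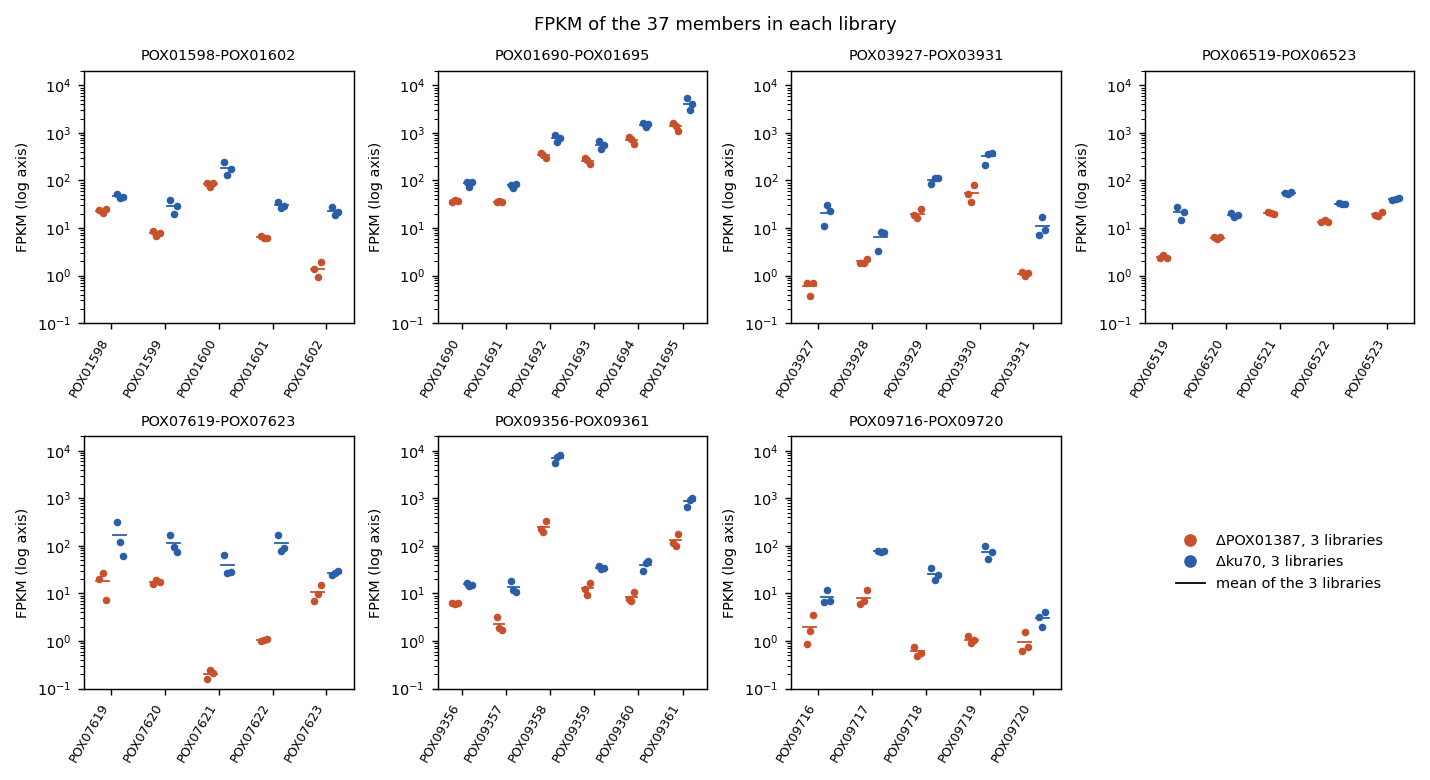
FPKM (log axis) of each of the 37 members in each library, 1 panel per run, with ΔPOX01387 (3 points, left) and Δku70 (3 points, right) for every gene and short lines at the strain means. The strains do not overlap for any member, and the distance between them differs widely within a run, except in POX01690 to POX01695 (33.4% to 47.8% of the Δku70 mean left).

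Together the 37 genes took 0.369%, 0.331% and 0.312% of the summed FPKM in ΔPOX01387 replicates 1, 2 and 3, against 1.64%, 1.51% and 1.76% in Δku70 replicates 1, 2 and 3. Most of that sat in 2 runs. POX01690 to POX01695 held 0.266% ± 0.040 in ΔPOX01387 and 0.704% ± 0.147 in Δku70, and POX09356 to POX09361 held 0.0399% ± 0.0116 in ΔPOX01387 and 0.776% ± 0.156 in Δku70 (SD, n = 3 each). The other 5 runs each held at most 0.0117% in ΔPOX01387 and at most 0.046% in Δku70.

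The run POX09716 to POX09720 had the largest median fall, at -3.14, ahead of POX07619 to POX07623 at -2.98. This order was reversed with a pseudocount of 5, at -2.43 against -2.70. It was also reversed without ΔPOX01387 replicate 1, without ΔPOX01387 replicate 2 and without Δku70 replicate 3. POX09716 to POX09720 was a run of low to moderate parental level, with a median of 1.07 FPKM in ΔPOX01387 and 25.7 FPKM in Δku70. Its log2 fold changes were spread over 4.12 units. The fall deepened with each ID number as far as the fourth gene, POX09719, and was smallest in the gene after it. With a pseudocount of 5 POX09717 and POX09718 changed places, at -2.67 and -2.43.

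POX09719, the strongest member, was at 1.25, 0.9 and 1.07 FPKM in ΔPOX01387 and at 98.43, 52.91 and 76.01 FPKM in Δku70. The mutant thus had 1.42% of the parental mean, the log2 fold change was -5.17 ± 0.22 (SE), and 5 of the 8925 tested genes had a larger fall. POX09718 was at 0.76, 0.48 and 0.57 FPKM in ΔPOX01387 and at 33.72, 19.02 and 24.32 FPKM in Δku70, a log2 fold change of -4.02 ± 0.21 (SE). In both genes the lowest parental library stood more than 25 times above the highest mutant one, at 42.3-fold for POX09719 and 25.03-fold for POX09718. POX09717 was at 6.03, 6.95 and 11.52 FPKM in ΔPOX01387 and at 79.2, 74.66 and 77.82 FPKM in Δku70, a log2 fold change of -3.14 ± 0.21 (SE). Its parental libraries were within 1.06-fold of each other, while ΔPOX01387 replicate 3 was 1.91-fold above replicate 1.

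The ends of this run were weak. POX09716 was at 0.87, 1.62 and 3.44 FPKM in ΔPOX01387 and at 6.53, 11.61 and 7.05 FPKM in Δku70, a log2 fold change of -1.71 ± 0.35 (SE). POX09720, the weakest member, was at 0.61, 1.54 and 0.76 FPKM in ΔPOX01387 and at 3.27, 1.93 and 4.14 FPKM in Δku70, a log2 fold change of -1.05 ± 0.28 (SE). Of all 37 members it came closest to an overlap of the strains, its lowest parental library being 1.25-fold above its highest mutant one. It was the least expressed member in Δku70, and 14.3% of all genes were below it there. Its call was lost when any of 4 libraries was left out: with values of -0.92 without ΔPOX01387 replicate 1, -0.99 without ΔPOX01387 replicate 3, -1.01 without Δku70 replicate 1 and -0.87 without Δku70 replicate 3.

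Directly outside this run, expression was near the floor. POX09715, the ID directly below, averaged 0.06 FPKM in ΔPOX01387 and 0.383 FPKM in Δku70, and POX09721, directly above, was listed at 0 in every ΔPOX01387 library and averaged 0.433 FPKM in Δku70. Among the 5 IDs on either side, 9 were listed, 6 of them were too weak to be tested, and POX09722 was not in the tables. The 3 tested ones, POX09711, POX09712 and POX09714, averaged 3.21, 2.89 and 0.767 FPKM in ΔPOX01387 and 4.30, 3.81 and 1.93 FPKM in Δku70. POX09711 and POX09712 were thus above the member POX09720, which averaged 3.11 FPKM in Δku70. In the same order, the log2 fold changes of the 3 tested IDs were -0.45, -0.30 and -0.73. Of these 1 was called lower, POX09714, beside 32.6% of all tested genes. The edges of this run thus lay where the tested genes ended, and the definition of a run could not extend it there.

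The run POX07619 to POX07623 had a median fall of -2.98 and held the strongest member of the whole set. Its median level was 10.7 FPKM in ΔPOX01387 and 113 FPKM in Δku70, against 29.6 FPKM in ΔPOX01387 and 33.2 FPKM in Δku70 for all tested genes. It was also the least uniform run, with log2 fold changes spread over 4.38 units.

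POX07622 was at 1.02, 1.03 and 1.11 FPKM in ΔPOX01387 and at 171.54, 78.56 and 88.62 FPKM in Δku70. Its mutant libraries were within 1.09-fold of each other, 0.933% of the parental mean was left, and the log2 fold change was -5.71 ± 0.28 (SE), the fourth largest fall among the tested genes. POX07621, next to it in number, was at 0.16, 0.25 and 0.21 FPKM in ΔPOX01387 and at 65.23, 26.97 and 28.74 FPKM in Δku70. By mean FPKM it kept least of all members, 0.513%, while the log2(FPKM + 1) scale gives it -4.98 ± 0.33 (SE), a smaller fall than that of POX07622, because the pseudocount weighs on values this low. With a pseudocount of 0.1 in place of 1 the order was reversed, with -6.93 for POX07621 and -6.53 for POX07622.

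The other 3 genes of this run kept more. POX07620 was at 15.77, 19.22 and 17.19 FPKM in ΔPOX01387 and at 172.85, 95.93 and 75.33 FPKM in Δku70, a log2 fold change of -2.57 ± 0.29 (SE). POX07619 was at 20.41, 26.35 and 7.4 FPKM in ΔPOX01387 and at 317.32, 122.63 and 60.95 FPKM in Δku70, a log2 fold change of -2.98 ± 0.67 (SE). The libraries of POX07619 differed by 3.56-fold in ΔPOX01387 and by 5.21-fold in Δku70, the widest parental spread of any member, and its value was -2.36 without Δku70 replicate 1. Since POX07619 is the middle gene of the run by size of fall, the run's median also moved to -2.36 without that library. POX07623, the weakest member, was at 6.96, 9.8 and 15.32 FPKM in ΔPOX01387 and at 24.37, 27.46 and 29.85 FPKM in Δku70, a log2 fold change of -1.33 ± 0.25 (SE). Unlike the 4 genes before it, it was lowest in Δku70 replicate 1 and highest in Δku70 replicate 3.

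The genes on both sides of POX07619 to POX07623 were also lower, below the 2-fold limit. POX07618 averaged 52.9 FPKM in ΔPOX01387 and 93.8 FPKM in Δku70, a log2 fold change of -0.80, and POX07624 averaged 105 FPKM in ΔPOX01387 and 170.7 FPKM in Δku70, a log2 fold change of -0.70. The pattern then broke on both sides, since POX07617 and POX07625 were called higher, at 0.78 and 0.68. The next IDs outward, POX07616 and POX07626, were again called lower, at -0.49 and -0.85. Further above, POX07627 and POX07628 were weak genes with log2 fold changes of -1.66 and -1.56. Of the 10 flanking IDs 6 were called lower and 2 higher, against 32.6% and 15.3% of all tested genes, and 2 were not called.

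The run POX03927 to POX03931 had a median fall of -2.43. It mixed weak and well expressed genes: the member means ranged from 0.597 to 55.4 FPKM in ΔPOX01387 and from 6.52 to 322.5 FPKM in Δku70. On the log2(FPKM + 1) scale the first gene fell most, the second least, and the last 3 by similar amounts.

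POX03927, the strongest member, was at 0.71, 0.38 and 0.7 FPKM in ΔPOX01387 and at 11.28, 29.87 and 22.38 FPKM in Δku70. It kept 2.82% of the parental mean, with a log2 fold change of -3.70 ± 0.33 (SE). POX03928, the weakest, was at 1.87, 1.84 and 2.24 FPKM in ΔPOX01387 and at 3.31, 8.34 and 7.92 FPKM in Δku70, a log2 fold change of -1.26 ± 0.30 (SE). Its call was lost without ΔPOX01387 replicate 1, at -1.23, and without Δku70 replicate 3, at -1.09.

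POX03930, the most abundant member, was at 50.76, 35.29 and 80.18 FPKM in ΔPOX01387 and at 214.06, 368.86 and 384.47 FPKM in Δku70, a log2 fold change of -2.55 ± 0.34 (SE). POX03929 was at 18.58, 16.43 and 24.88 FPKM in ΔPOX01387 and at 82.64, 113.79 and 113.68 FPKM in Δku70, a log2 fold change of -2.32 ± 0.19 (SE). POX03931 was at 1.18, 0.96 and 1.16 FPKM in ΔPOX01387 and at 7.04, 16.9 and 9.13 FPKM in Δku70, a log2 fold change of -2.43 ± 0.29 (SE). On the log2(FPKM + 1) scale these 3 genes lay within 0.23 of each other, less than the SE of 2 of them. Their parental means lay 29.3-fold apart, and the likeness depended on the pseudocount. By mean FPKM, POX03929, POX03930 and POX03931 kept 19.3%, 17.2% and 9.98%. With a pseudocount of 0.1 they had, in that order, -2.37, -2.57 and -3.12, and with a pseudocount of 5 they had -2.12, -2.46 and -1.35. POX03927 had -2.16 with a pseudocount of 5, a smaller fall than that of POX03930.

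The lower edge of this run was sharp. POX03922 to POX03926 had log2 fold changes between 0.06 and 0.41, and none of the 5 was called lower, beside 32.6% of all tested genes. Directly above the run, POX03932 averaged 56.7 FPKM in ΔPOX01387 and 60.6 FPKM in Δku70, a log2 fold change of -0.10 with overlapping libraries. Past that gene the values dropped again, with -1.87 for POX03933 and -5.01 for POX03935. POX03935 was at 0.82, 0.55 and 0.81 FPKM in ΔPOX01387 and at 443.52, 12.35 and 27.55 FPKM in Δku70. Its parental libraries differed by 35.9-fold, and POX03933 and POX03935 were highest in Δku70 replicate 1, the library in which all 5 members of the run were lowest.

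The run POX09356 to POX09361 had a median fall of -2.14 and the widest range of levels, 507-fold between the least and the most abundant member in Δku70. One gene dominated it. POX09358 was at 230.59, 199.27 and 325.39 FPKM in ΔPOX01387 and at 5407.38, 7238.29 and 7976.68 FPKM in Δku70. It ranked 7th of all genes by mean level in the parent and kept 3.66% of that mean in the mutant, a log2 fold change of -4.78 ± 0.23 (SE). It made up 60.9% of the run's summed mean FPKM in ΔPOX01387 and 87.6% in Δku70.

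POX09361, the second most abundant member, was at 116.33, 99.02 and 180.24 FPKM in ΔPOX01387 and at 656.92, 912.93 and 1036.22 FPKM in Δku70, a log2 fold change of -2.73 ± 0.26 (SE). POX09360 was at 7.73, 7.03 and 10.66 FPKM in ΔPOX01387 and at 29.09, 43.31 and 48.49 FPKM in Δku70, a log2 fold change of -2.11 ± 0.22 (SE). POX09358, POX09360 and POX09361 shared the order of all 6 libraries: in ΔPOX01387 replicate 3 was highest and replicate 2 lowest, and in Δku70 replicate 3 was highest and replicate 1 lowest.

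In the remaining members Δku70 replicate 1 was the highest parental library. POX09357 was at 3.16, 1.84 and 1.68 FPKM in ΔPOX01387 and at 18.07, 11.99 and 10.6 FPKM in Δku70, a log2 fold change of -2.17 ± 0.25 (SE). POX09359 was at 12.31, 9.22 and 16.7 FPKM in ΔPOX01387 and at 37.39, 32.05 and 34.94 FPKM in Δku70, a log2 fold change of -1.41 ± 0.20 (SE). POX09356, the weakest, was at 6.4, 6.1 and 6.38 FPKM in ΔPOX01387 and at 16.71, 14.17 and 15.36 FPKM in Δku70, a log2 fold change of -1.17 ± 0.10 (SE). POX09356 and POX09359 shared the order of their parental libraries, with Δku70 replicate 2 lowest, and both were lowest in ΔPOX01387 replicate 2. POX09357 was lowest in replicate 3 of both strains.

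Lower genes continued on both sides of POX09356 to POX09361. POX09355, directly below, averaged 448 FPKM in ΔPOX01387 and 870.2 FPKM in Δku70, a log2 fold change of -0.95, which left it just outside the 2-fold limit. POX09352 and POX09353 had -2.06 and -2.00, with POX09354 at -0.12 between them and the run. Above the run, POX09362 had -0.15 with overlapping libraries, and POX09365 was at 338.41, 315.57 and 481.01 FPKM in ΔPOX01387 and at 2095.42, 2213.34 and 2647.19 FPKM in Δku70, a log2 fold change of -2.63 ± 0.19 (SE). Of the 10 flanking IDs, 8 were called lower and 4 of these were at least 2-fold lower, the highest counts beside any of the 7 runs. Of all tested genes 32.6% were called lower and 6.80% were called and at least 2-fold lower.

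**Figure D2:**
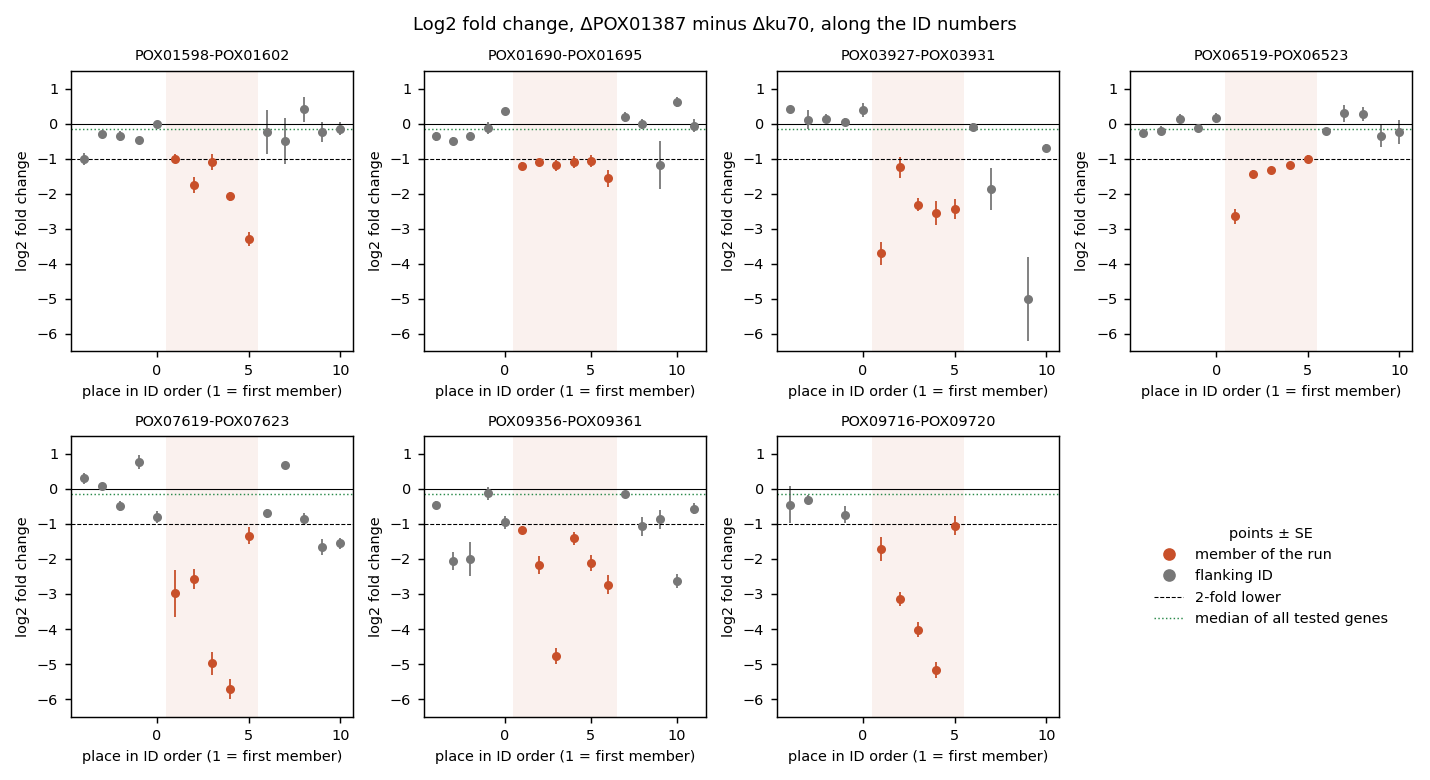
Log2 fold change ± SE, ΔPOX01387 minus Δku70 on the log2(FPKM + 1) scale, by place in ID order for the members (shaded) and up to 5 tested IDs on each side of every run, with lines at 0, at 2-fold lower and at the median of all tested genes. The strongest member stands at an end of 4 runs and inside the other 3, and lower genes continue beyond POX09356 to POX09361 (8 of 10 flanking IDs called lower).

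The run POX01598 to POX01602 had a median fall of -1.75, from genes of ordinary parental level, with a median of 7.79 FPKM in ΔPOX01387 and 30.4 FPKM in Δku70. Its strongest member was its last. POX01602 was at 1.38, 0.92 and 1.92 FPKM in ΔPOX01387 and at 27.53, 18.57 and 21.48 FPKM in Δku70, which left 6.24% of the parental mean and gave a log2 fold change of -3.29 ± 0.20 (SE). POX01601 was at 6.78, 6.18 and 6.26 FPKM in ΔPOX01387 and at 35.86, 25.9 and 29.57 FPKM in Δku70, a log2 fold change of -2.07 ± 0.13 (SE).

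The 3 lower-numbered genes of this run fell less, and 2 of them lay near the limit. POX01599 was at 8.46, 6.93 and 7.98 FPKM in ΔPOX01387 and at 38.65, 20.14 and 29.72 FPKM in Δku70, a log2 fold change of -1.75 ± 0.23 (SE). POX01600, the most abundant member, was at 88.11, 72.02 and 86.8 FPKM in ΔPOX01387 and at 242.86, 129.68 and 176.33 FPKM in Δku70, a log2 fold change of -1.10 ± 0.22 (SE). POX01598 was at 24.22, 20.24 and 24.62 FPKM in ΔPOX01387 and at 53.05, 42.51 and 45.86 FPKM in Δku70, a log2 fold change of -1.00 ± 0.12 (SE). POX01598 was the member nearest to the limit of all 37. Without Δku70 replicate 1, in which all 5 members were highest, 3 of the 5 were at least 2-fold lower.

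Directly below POX01598 to POX01602 the fall was absent, while the gene directly above varied too much between libraries to place an edge. POX01597 averaged 84.9 FPKM in ΔPOX01387 and 85.4 FPKM in Δku70, a log2 fold change of -0.01. POX01603, beside the strongest member, was at 23.05, 72.48 and 17.18 FPKM in ΔPOX01387 and at 66.08, 41.52 and 17.66 FPKM in Δku70. Its libraries overlapped between the strains, and its log2 fold change was -0.24 ± 0.64 (SE). The 10 flanking IDs held 3 genes called lower, among them POX01593 at -1.01, and 0 called higher, beside 32.6% and 15.3% of all tested genes.

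The run POX06519 to POX06523 had a median fall of -1.32 and showed the smallest spread between libraries. Its levels were even, with a 2.88-fold range of Δku70 means, and its fall became smaller with each ID number. That order was not kept with a pseudocount of 5, which gave -1.07 for POX06520 and -1.18 for POX06521. POX06519, the first and strongest, was at 2.29, 2.71 and 2.38 FPKM in ΔPOX01387 and at 27.29, 14.92 and 21.65 FPKM in Δku70, which left 11.6% of the parental mean and gave a log2 fold change of -2.65 ± 0.21 (SE).

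The other 4 genes fell by similar amounts. POX06520 was at 6.5, 5.95 and 6.45 FPKM in ΔPOX01387 and at 20.72, 16.99 and 18.63 FPKM in Δku70, a log2 fold change of -1.43 ± 0.10 (SE). POX06521 was at 22.09, 20.9 and 20.09 FPKM in ΔPOX01387 and at 53.76, 52.29 and 56.1 FPKM in Δku70, a log2 fold change of -1.32 ± 0.08 (SE). POX06522 was at 13.2, 14.47 and 13.08 FPKM in ΔPOX01387 and at 33.26, 32.45 and 31.38 FPKM in Δku70, a log2 fold change of -1.19 ± 0.08 (SE). POX06521 and POX06522 had the tightest parental libraries of this run, within 1.07-fold and 1.06-fold of each other. POX06523, the weakest, was at 18.8, 18.33 and 22.17 FPKM in ΔPOX01387 and at 39.51, 39.87 and 42.53 FPKM in Δku70, a log2 fold change of -1.01 ± 0.10 (SE).

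Around this run little changed. The 10 flanking IDs had log2 fold changes between -0.36 and 0.30. Of these 1, POX06514 at -0.27, was called lower, beside 32.6% of all tested genes. POX06518, directly below the strongest member, averaged 15.2 FPKM in ΔPOX01387 and 13.4 FPKM in Δku70, and POX06524, directly above the weakest, averaged 68.9 FPKM in ΔPOX01387 and 79.8 FPKM in Δku70.

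The run POX01690 to POX01695 had the smallest median fall, at -1.15, the highest parental level and the most uniform fall. Its members had a median of 300.2 FPKM in ΔPOX01387 and 672 FPKM in Δku70, and their log2 fold changes lay within 0.49 of each other. POX01695, the last gene, was both the most abundant and the strongest member. It was at 1607.97, 1415.14 and 1114.39 FPKM in ΔPOX01387 and at 5305.22, 3098.97 and 3967.26 FPKM in Δku70, which left 33.4% of the parental mean and gave a log2 fold change of -1.56 ± 0.24 (SE). It ranked 24th of all genes by mean level in the parent.

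The other 5 genes kept between 41.9% and 47.8% of their parental means. POX01694, the weakest member, was at 807.1, 752.46 and 582.69 FPKM in ΔPOX01387 and at 1623.19, 1312.25 and 1546.8 FPKM in Δku70, a log2 fold change of -1.07 ± 0.16 (SE). POX01693 was at 292.08, 268.67 and 219.69 FPKM in ΔPOX01387 and at 660.64, 460.57 and 555.25 FPKM in Δku70, a log2 fold change of -1.09 ± 0.17 (SE). POX01692 was at 382.42, 342.13 and 296.43 FPKM in ΔPOX01387 and at 914.53, 644.36 and 798.42 FPKM in Δku70, a log2 fold change of -1.20 ± 0.16 (SE). In these 3 genes and in POX01695 the mutant libraries kept 1 order, with replicate 1 highest and replicate 3 lowest.

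The first 2 genes of this run were of lower level and nearly equal to each other. POX01690 was at 34.6, 38.5 and 36.75 FPKM in ΔPOX01387 and at 94.32, 73.95 and 93.92 FPKM in Δku70, a log2 fold change of -1.23 ± 0.12 (SE). POX01691 was at 35.39, 36.41 and 35.78 FPKM in ΔPOX01387 and at 80.82, 69.18 and 85.59 FPKM in Δku70, a log2 fold change of -1.10 ± 0.10 (SE). Both were highest in ΔPOX01387 replicate 2 and lowest in ΔPOX01387 replicate 1, unlike the 4 genes after them.

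The fall of POX01690 to POX01695 ended at both edges. POX01689 averaged 29.01 FPKM in ΔPOX01387 and 22.4 FPKM in Δku70, a log2 fold change of 0.36, and was called higher. POX01696 averaged 262.5 FPKM in ΔPOX01387 and 230.5 FPKM in Δku70, a log2 fold change of 0.18 with overlapping libraries. Below POX01689 the IDs POX01685, POX01686 and POX01687 were called lower, by 0.50 or less on the log2 scale. Above the run POX01699 was called higher, at 0.62. POX01698 had the lowest value of these flanking IDs, -1.18 ± 0.68 (SE), and was not called. It was at 11.15, 1.84 and 1.84 FPKM in Δku70 and at 1.9, 0 and 1.89 FPKM in ΔPOX01387.

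Over all 7 runs, 69 of the 70 flanking IDs were listed and 62 were tested. Of the tested ones 25 were called lower, 9 of them at least 2-fold, and 5 were called higher, beside 32.6%, 6.80% and 15.3% of all tested genes. Their median log2 fold change was -0.26, against -0.15 for all tested genes. The nearest values on either side of the 2-fold limit were -1.00 for POX01598 and -1.01 for POX06523 inside it, and -0.95 for POX09355 outside it among the genes that touch a run. The strongest member stood at the end of the run in POX01598 to POX01602 and POX01690 to POX01695, at its start in POX03927 to POX03931 and POX06519 to POX06523, and inside it in the other 3. With a pseudocount of 5 the strongest member of POX03927 to POX03931 was POX03930, inside the run.

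The spread among the libraries of a strain entered the test that chose the members, so it is given as a description. The median SD of a member's log2(FPKM + 1) values within a strain was smallest in POX06519 to POX06523, at 0.075 in ΔPOX01387 and 0.057 in Δku70. For all tested genes the medians were 0.133 in ΔPOX01387 and 0.146 in Δku70. In POX07619 to POX07623 the SD was 0.135 in ΔPOX01387 and 0.611 in Δku70, and in POX03927 to POX03931 it was 0.176 in ΔPOX01387 and 0.594 in Δku70. The pseudocount shrinks this SD for members with low mutant values. By the ratio of highest to lowest library, POX03929, POX03930 and POX07623 varied more in ΔPOX01387. Their ratios were 1.51, 2.27 and 2.20 there, against 1.38, 1.80 and 1.23 in Δku70. The other members of these 2 runs varied more in Δku70. Both strains varied in POX09716 to POX09720, at 0.349 in ΔPOX01387 and 0.405 in Δku70, and in POX09356 to POX09361, at 0.353 in ΔPOX01387 and 0.315 in Δku70. The SD in POX01598 to POX01602 was 0.150 in ΔPOX01387 and 0.275 in Δku70, and in POX01690 to POX01695 it was 0.197 in ΔPOX01387 and 0.226 in Δku70.

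Within a run the members often deviated together. In Δku70 replicate 1, all 5 members of POX01598 to POX01602, all 6 of POX01690 to POX01695 and 4 of 5 of POX07619 to POX07623 were above their strain mean, with median deviations of 0.30, 0.18 and 0.69 on the log2 scale. In the same library all 5 members of POX03927 to POX03931 were below it, with a median of -0.54. For all tested genes the median deviation of that library was 0.03. The 7 runs thus did not share 1 direction in the parental library in which 23 of the 37 members were highest and 11 lowest. Of the 8925 tested genes, 3993 were highest and 2792 lowest in that library.

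The runs also differed among the mutant libraries. In ΔPOX01387 replicate 2, all 5 members of POX01598 to POX01602, all 5 of POX03927 to POX03931 and all 6 of POX09356 to POX09361 were below their strain mean, with medians of -0.17, -0.20 and -0.26, while all 6 of POX01690 to POX01695 were above it, with a median of 0.05. The median for all tested genes there was -0.01. The members of POX06519 to POX06523 were split in every mutant library, with 2 above and 3 below, around medians between -0.04 and -0.01. Each strain had 3 libraries, and these shared deviations are a description of those libraries.

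**Figure D3:**
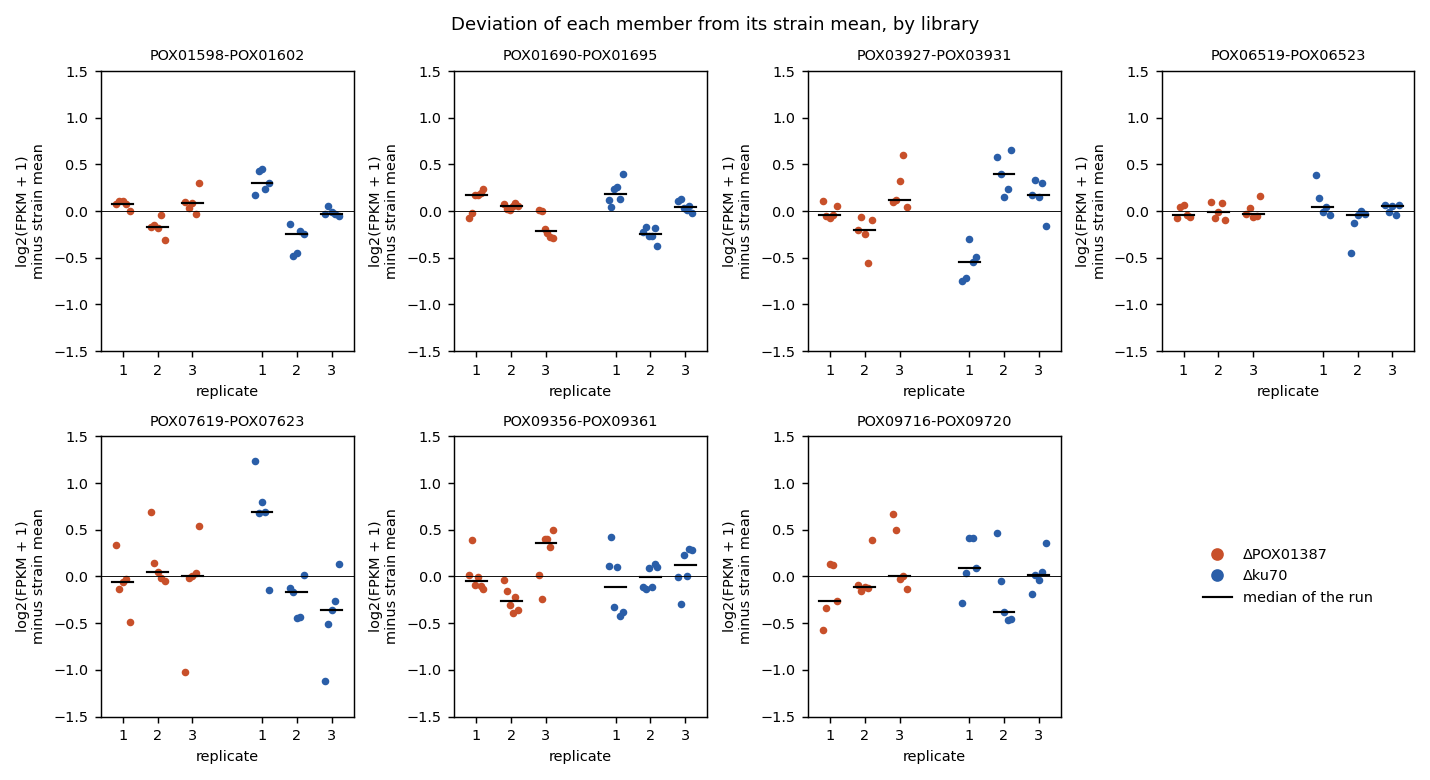
Deviation of each member's log2(FPKM + 1) from the mean of its strain, by replicate of ΔPOX01387 (left) and Δku70 (right), 1 panel per run, with the run's median as a line. Δku70 replicate 1 lies above the others in POX07619 to POX07623 (median 0.69) and below them in POX03927 to POX03931 (median -0.54), and POX06519 to POX06523 stays near 0.

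How many runs had all their members called and at least 2-fold lower depended on the scaling, on the pseudocount and on single libraries. Median-of-ratios scaling, which sets the middle gene ratio equal in all libraries, moved the median of all tested genes from -0.15 to 0.01 and every member up by between 0.10 and 0.17. After it, 30 of the 37 members were called and at least 2-fold lower, against 4.88% of all genes tested then. The 7 members that were less than 2-fold lower were POX01598 at -0.84, POX01600 at -0.94, POX01691 at -0.94, POX01693 at -0.93, POX01694 at -0.91, POX06523 at -0.85 and POX09720 at -0.95. POX03927 to POX03931, POX07619 to POX07623 and POX09356 to POX09361 kept all their members past the limit under that scaling. Median falls became -2.31, -2.82 and -1.99 in these 3 runs, -2.98 in POX09716 to POX09720, -1.60 in POX01598 to POX01602, -1.16 in POX06519 to POX06523 and -0.99 in POX01690 to POX01695. All 37 members were called lower under either scaling, beside 32.6% of all tested genes on the deposited FPKM and 22.1% after median-of-ratios scaling. Quantile normalization also left 3 runs whole, but not the same 3: POX01690 to POX01695, POX03927 to POX03931 and POX07619 to POX07623. With a pseudocount of 5 there were 2 whole runs, POX01690 to POX01695 and POX07619 to POX07623. The count was 4 without ΔPOX01387 replicate 1, without Δku70 replicate 1 or without Δku70 replicate 3, and between 5 and 7 without any other single library. POX07619 to POX07623 was whole under every alternative run.

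**Figure D4:**
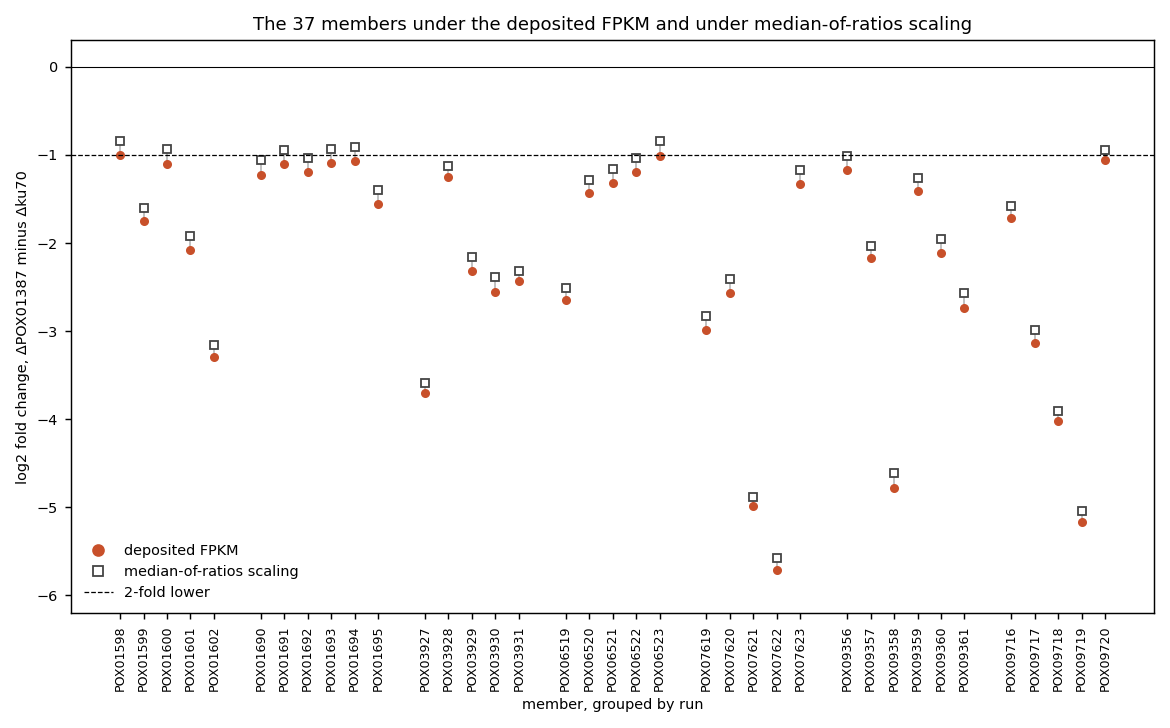
Log2 fold change, ΔPOX01387 minus Δku70, of the 37 members grouped by run, from the deposited FPKM (filled circles) and after median-of-ratios scaling (open squares), with a dashed line at 2-fold lower. The 7 open squares above the dashed line are the members that were less than 2-fold lower after that scaling, and all 37 stay below 0.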

How the data were processed

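Mycelial mRNA was primed with random hexamers and sequenced on a BGISEQ instrument, per the labels' protocols, which mention no marking of strand. Tools listed without roles in the submitters' processing notes are RSEM 1.2.12, Bowtie2 2.1.0, BWA 0.7.10-r789 and DESeq2. The genome build, the gene models and any filters remain not given in the sources used here. Per the file headers, each deposited table holds FPKM values of 1 library. FPKM are not counts, so no count model was fitted, and without read totals no counting interval is given.

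Groups and replicate numbers came from the sample titles. All 9727 genes were transformed to log2(FPKM + 1), and the 8925 whose mean reached 1 FPKM were fitted with limma 3.58.1 in R 4.3.3 (intensity trend, two-sided, Benjamini-Hochberg adjustment, threshold 0.05), after the procedure was tested on simulated data. The labels do not say whether libraries came from separate cultures, so the calls measure the spread between libraries, which may be technical. The fold change understates the change of weakly expressed genes. No 2 libraries were identical. Genes named are the 37 members, the 5 IDs on each side of each run and POX01387; members, runs and lists were chosen with earlier results of these data known. None of the 9727 IDs matched a locus tag or synonym of the RefSeq table for assembly ASM172317v3 exactly, so that table was not used for names, positions or sequences, and overlapping genes or near-identical copies, which can share reads, could not be recognised. The alternatives were pseudocounts of 0.1 and 5, no filter, a minimum mean of 5 FPKM, 3 other scalings, 2 other limma priors, a replicate block, and omission of any single library.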

Additional observations from a re-analysis of the deposited data

How the results depend on the processing

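No member changed direction under any of the 16 alternatives. POX03928 and POX09720 lost their calls in 2 and 4 of the settings that left out a library, given beside their values, and a minimum mean of 5 FPKM left out 2 members, POX03928 and POX09720, so 35 were tested and called. With a pseudocount of 5, which shrinks low values by construction, 385 genes were called and at least 2-fold lower, against 607, and 31 of the 37 members were. The run medians were then -1.40 in POX01598 to POX01602, -1.07 in POX06519 to POX06523, -1.54 in POX09356 to POX09361 and -2.43 in POX09716 to POX09720, where 3 members were at least 2-fold lower. A minimum mean of 5 FPKM gave a median of -3.58 in POX09716 to POX09720, which had lost its weakest member. For POX06519 to POX06523 both median-of-ratios scaling and quantile normalization gave -1.16; under the first, 3 members of POX01598 to POX01602 and 3 of POX01690 to POX01695 were at least 2-fold lower. With 1 library left out, the medians lay between -1.99 and -1.54 in POX01598 to POX01602 and between -3.54 and -2.36 in POX07619 to POX07623, and between 3 and 5 members of POX01598 to POX01602 were at least 2-fold lower. Beyond these values and constructions the cause was not tested. The replicate block left 37 of 37 members called and at least 2-fold lower, as were 611 of all genes against 607 without it. In either direction 4585 genes were then called, against 4272. The numbers were not taken as pairs, since deviations of same-numbered libraries correlated at 0.088, 0.27 and 0.54 and the labels name no shared culture. Depth in reads is unknown, so the counting error behind members under 1 FPKM in the mutant cannot be given.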
